A study of Mus musculus with 6 samples.

Results

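Nuclear genes for subunits of the mitochondrial respiratory chain and of ATP synthase were followed in mouse muscle. The members were the rows of the deposited gene table whose symbol begins Nduf followed by a, b, c, s or v and a number, is Sdha, Sdhb, Sdhc or Sdhd, or begins Uqcr, Cox4 to Cox8 or Atp5. Of 52110 rows with a symbol, 90 matched. Of these, 6 pseudogene rows ending in -ps or -ps and a digit were left out, and so were 2 rows under 60 reads summed over the libraries, Cox8c and Cox7b2, both at 0 reads. The members just above that limit were Cox6b2 with 83 reads and Cox4i2 with 253. The remaining 82 genes comprised 35 of complex I, 4 of complex II, 8 of complex III, 18 of complex IV and 17 whose symbol begins Atp5. The last are called complex V, or ATP synthase, here. Among them Atp5sl is annotated under the name Dmac2 and is counted there by its symbol alone. The match is by symbol, so a subunit gene with another style of name, such as Ndufab1 or Cyc1, is not among them.

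The muscle came from wild-type mice of the strain given as c57b6l, 3 of which had received the agent labelled click and 3 the agent labelled EDC. Nothing in the labels says what either agent is, which muscle was taken, at what dose or time, or how old the mice were. Neither group is labelled as untreated, so every difference below is click relative to EDC. The libraries are called click 1 to 3 and EDC 1 to 3 after their replicate numbers, and n = 3 in each group throughout. The design names 3 mice per group, but nothing states that they were housed or processed separately, so the p-values measure only the spread between these 6 libraries.

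The respiratory chain carries electrons from NADH and succinate to oxygen and pumps protons across the inner mitochondrial membrane, and ATP synthase uses the returning protons to make ATP. Complex I oxidises NADH, complex II oxidises succinate, complex III passes electrons from ubiquinol to cytochrome c, and complex IV, cytochrome c oxidase, reduces oxygen. Most subunits are encoded in the nucleus and the remainder in mitochondrial DNA, and oxidative muscle fibres hold more of the chain than glycolytic ones. Some complex IV subunits come in a form made in heart and skeletal muscle and a form made in most tissues: Cox6a2 and Cox6a1, Cox7a1 and Cox7a2, and Cox8b and Cox8a.

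The start regions of these isoform genes are shown first. Among them Cox6a1 and Cox8a were lower in click, unlike most members. Cox6a2, Cox7a1, Cox7a2 and Cox8b were higher in click, as most members were. The other members that were lower in click, Cox6b2 and Ndufa4l2, are not shown. Each sequence runs 5′ to 3′ on the strand of the gene, from 250 bases before the RefSeq start to 50 after it, in the GRCm38.p6 build. Capitals mark motif matches on either strand: CCGGAAG, the core recognised by ETS factors such as GABP, GCGCATGCGC, the site of nuclear respiratory factor 1, TATAAA, the TATA box, and CAGCTG, an E box.
Cox6a1: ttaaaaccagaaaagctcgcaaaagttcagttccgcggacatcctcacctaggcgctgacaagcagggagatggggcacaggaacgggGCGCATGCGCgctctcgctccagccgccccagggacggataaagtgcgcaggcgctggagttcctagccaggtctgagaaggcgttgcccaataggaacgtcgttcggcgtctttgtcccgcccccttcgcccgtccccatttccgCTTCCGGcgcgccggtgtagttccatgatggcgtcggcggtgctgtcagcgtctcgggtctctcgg
Cox8a: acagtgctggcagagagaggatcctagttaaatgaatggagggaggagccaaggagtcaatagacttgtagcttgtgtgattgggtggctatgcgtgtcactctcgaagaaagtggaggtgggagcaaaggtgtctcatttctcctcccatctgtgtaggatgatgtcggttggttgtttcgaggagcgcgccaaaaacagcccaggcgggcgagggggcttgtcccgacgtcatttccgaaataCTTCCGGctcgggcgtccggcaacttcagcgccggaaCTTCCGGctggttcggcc
Cox8b: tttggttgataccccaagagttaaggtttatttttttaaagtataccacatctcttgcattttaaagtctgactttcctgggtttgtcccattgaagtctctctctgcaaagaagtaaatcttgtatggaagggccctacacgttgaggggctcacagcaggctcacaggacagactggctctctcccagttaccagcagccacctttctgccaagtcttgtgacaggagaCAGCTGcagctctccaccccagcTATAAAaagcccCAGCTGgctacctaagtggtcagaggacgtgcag
The Cox6a1 window lies at chr5:115348909-115349208 on the minus strand, has 32 CpG dinucleotides and 63.0% G and C, and holds the NRF1 site and 1 ETS core. The Cox8a window, chr19:7217567-7217866 on the minus strand, has 19 CpG dinucleotides and 56.0% G and C and holds 2 ETS cores. The window of the muscle form Cox8b, chr7:140900397-140900696 on the minus strand, has 2 CpG dinucleotides and 48.3% G and C, and holds a TATA box and 2 E boxes. The Cox8b window thus had fewer CpG dinucleotides than the windows of Cox6a1 and Cox8a. Cox6a2 was not matched to a window. The Cox7a1 window, chr7:30183921-30184220 on the plus strand, with 7 CpG dinucleotides, and the Cox7a2 window, chr9:79759804-79760103 on the minus strand, with 20, held none of these motifs.

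Promoter windows were found for 66 of the 82 members, 72 windows in all, and some genes had more than 1. NRF1 sites were present in 5 of the 72 (6.94%) and in 0.971% of the 32851 windows of the whole table. The ETS core was present in 16 (22.2%) against 8.86% of all windows, and the YY1 site AAGATGGCG in 9 (12.5%) against 1.40%. An oestrogen-related receptor site, TCAAGGTCA, was present in 2 (2.78%) against 0.423%. The E box was in 6 (8.33%) against 16.3% of all windows, the TATA box in 7 (9.72%) against 13.6%, and the MEF2 site in 0 against 3.19%. In windows of protein-coding genes alone the shares were 1.33% for NRF1, 11.6% for ETS, 1.83% for YY1, 0.334% for the receptor site, 15.6% for the E box, 12.6% for the TATA box and 2.74% for MEF2. A match describes letters in a window and is not evidence of a bound factor.

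Libraries held 34472421 to 39305779 reads, and the 82 members took 1.43% to 2.004% of them. Mitochondrially encoded genes took 14.8% to 17.9% of the reads in EDC but 18.9% to 30.2% in click, highest in click 1. Levels are given as CPM, read counts per 1000000 reads of the library size scaled by TMM factors, which ran from 0.704 in click 1 to 1.32 in EDC 3. Xist, a transcript of the silenced X chromosome in females, had reads in replicate 1 of each group and 0 in the others. Libraries also fell into 2 classes by the ratio of mt-Atp6 reads to those of its nuclear copy Gm10925, which was 0.927 to 0.937 in click 2, EDC 1 and EDC 3 and 0.162 to 0.166 in click 1, click 3 and EDC 2. No label gives a batch that corresponds to either difference.

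With TMM factors nearly all subunit genes were higher in click than in EDC, by a similar amount in every complex, but the groups overlapped for 81 of 82 and with library totals the difference was close to 0. Of the 82 members, 78 had a positive log2 fold change, where 51.3% of the 15797 genes tested did. Their median log2 fold change was 0.53, with quartiles of 0.41 and 0.65 and a range of -0.56 to 0.98, while the median of all genes tested was 0.015. The 4 with negative values were Cox6a1, Cox6b2, Ndufa4l2 and Cox8a, all complex IV genes with a partner isoform. No member passed an adjusted p of 0.05 in edgeR's quasi-likelihood test (0 of 82; adjusted p 0.298 to 0.893), and 0.00633% of all genes tested did, a single gene. At an unadjusted p under 0.05 there were 10 members (12.2%), 9 higher and 1 lower in click. Across all genes tested 15.2% reached that level, 7.22% higher and 8% lower. DESeq2 called 0 members (smallest adjusted p 0.0883) although it called 3.84% of all genes. In DESeq2 19 members had an unadjusted p under 0.05, as did 2988 of the 15797 genes tested. The tests therefore give no single subunit gene as changed.

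Summed over the 82 members, expression was 23424, 21955 and 16190 CPM in click 1, 2 and 3 and 12305, 19103 and 10853 CPM in EDC 1, 2 and 3. The group means were 20523 ± 3824 and 14087 ± 4404 CPM (SD, n = 3). EDC 2 lay among the click libraries and click 3 fell below it. The same order held gene by gene: EDC 2 exceeded click 3 for 80 of 82 members, click 1 was the highest library for 62 and click 2 for 14, and EDC 3 was the lowest for 68. These rank counts were not made over all genes tested. In the mean levels of the muscle fibre and citric acid cycle lists, too, EDC 2 exceeded click 3 and EDC 3 was lowest. All click libraries exceeded EDC 1 and EDC 3 for 68 members, against 21.6% of the genes tested. EDC 2 was left out of that count after the members' values were seen, so the contrast favours the members. Groups that did not overlap were found for 0 members higher in click, against 9.84% of all genes tested, and for 1 member lower in click, Cox6a1, against 12.4%. The number of members at an unadjusted p under 0.05 went from 10 to 54 without EDC 2 and to 31 without click 3, to 1 without EDC 1, and to 0 without click 1, click 2 or EDC 3. The count over all genes tested moved too, from 2404 of 15797 to 3004 of 16540 without EDC 2 and 3475 of 16312 without click 3. It was 1442 of 16280 without EDC 1 and 1070 of 16236 without EDC 3. Without click 1 it was 1992 of 16560, and without click 2 it was 1639 of 16516.

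**Figure D1:**
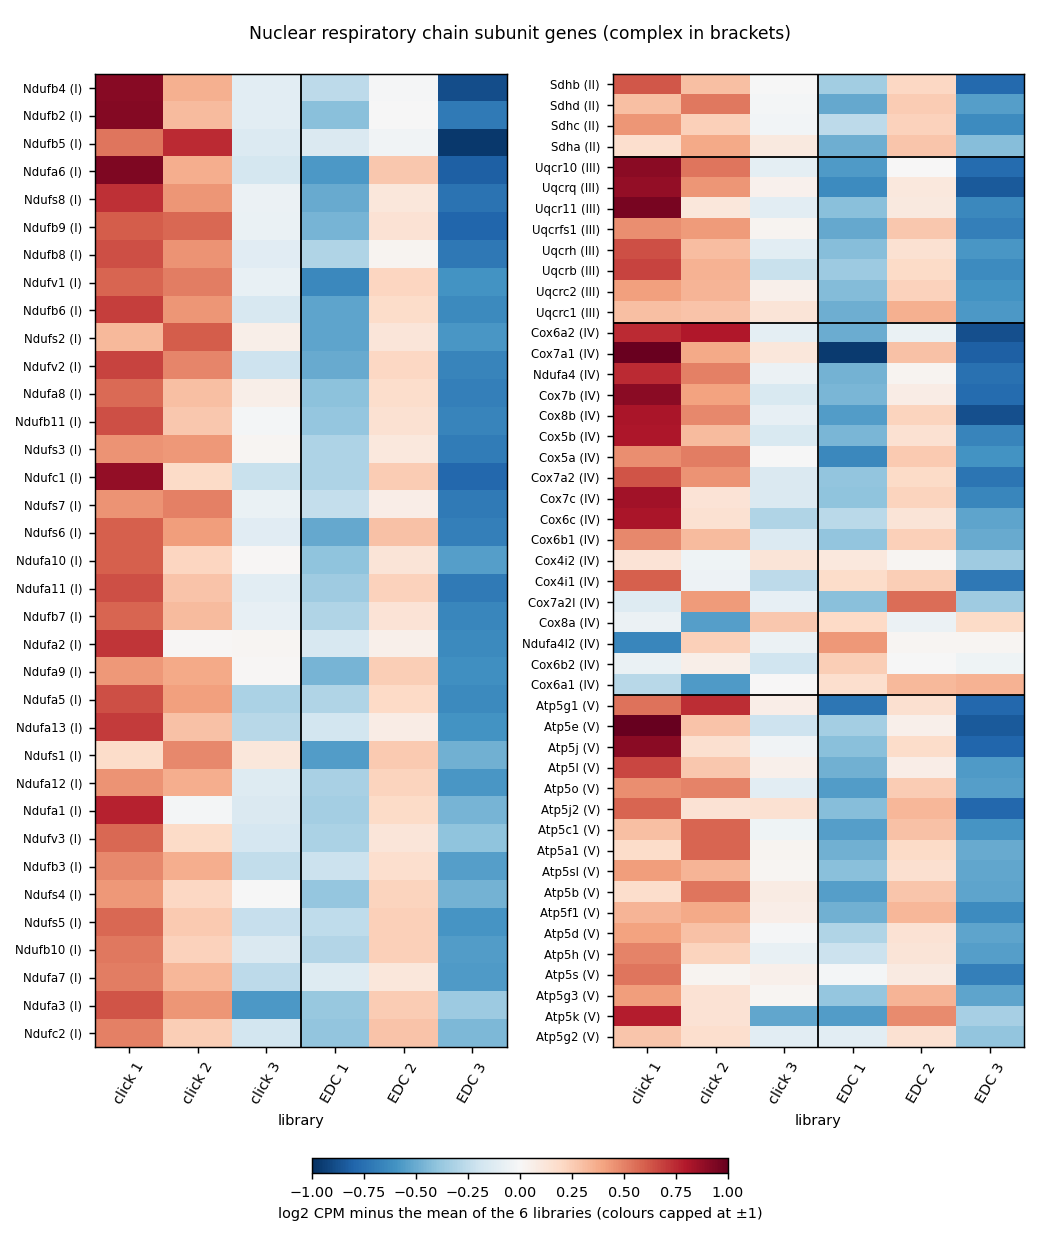
Level of each of the 82 subunit genes in each library, as log2 (CPM + 0.5) minus the gene's mean over the 6 libraries, with colours capped at 1 in either direction; genes are grouped by complex and ordered by log2 fold change. Red cells fill the click 1 and click 2 columns, EDC 2 is mostly pale red, click 3 pale, and the Cox6a1, Cox6b2, Ndufa4l2 and Cox8a rows run against the remainder.

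How much higher the members stood depended on what they were set against. With factors from library totals alone, the median log2 fold change of the members was 0.037 with 51 higher, and the median of all genes tested was -0.45. With factors set on 15 muscle fibre genes, the members' median was 0.073 with 55 higher, and that of all genes was -0.46. Among the genes described below, Atp5g2, Atp5g3, Cox4i1, Cox4i2, Cox6b1, Cox7a2l, Ndufc2, Sdha and Uqcrc1 had negative values with either of these. A change of factors shifts all genes together, so the members' distance above the median gene, 0.51 with TMM, hardly depends on the factors by construction. That distance did depend on the libraries, from 0.34 without EDC 3 to 0.80 without EDC 2. For click 1 and click 3 against EDC 2 it was 0.058. Within the mt-Atp6 read classes, the members' median was 0.83 for click 2 against EDC 1 and EDC 3, and 0.066 for click 1 and click 3 against EDC 2. With that class as a covariate it was 0.46.

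**Figure D2:**
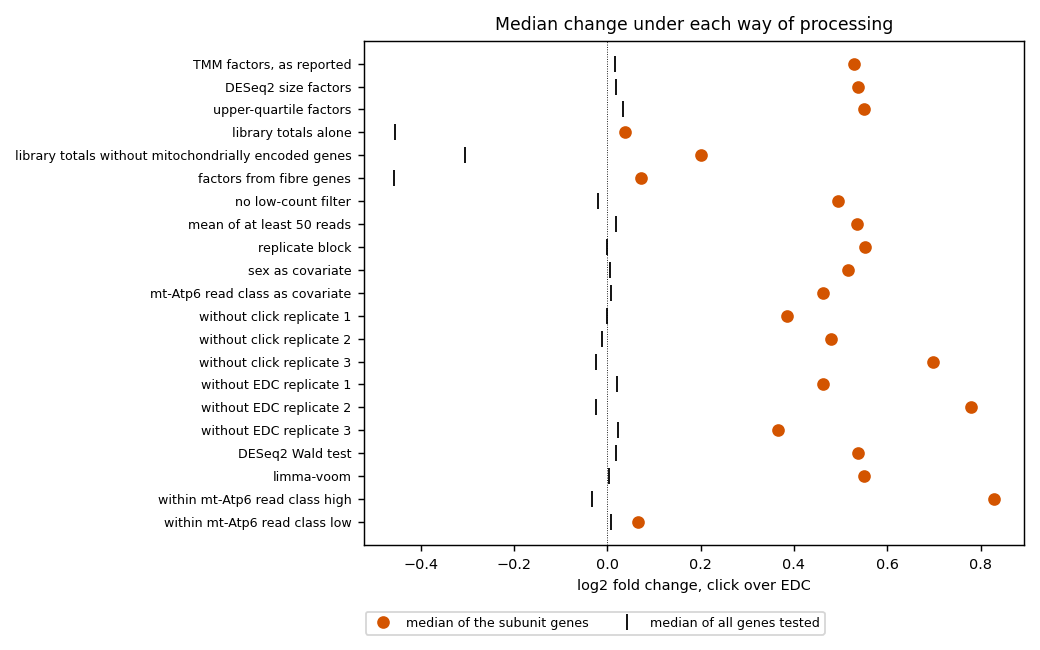
Median log2 fold change, click over EDC, of the subunit genes (points) and of all genes tested (ticks) under each way of processing. The points lie between 0.37 and 0.83 except for factors from library totals (0.037), totals without mitochondrially encoded genes (0.20), fibre genes (0.073) and the class of click 1, click 3 and EDC 2 (0.066).

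Markers of muscle fibres moved with the members. The 15 fibre genes, which include skeletal actin and fast myosin, had a median log2 fold change of 0.55 with 14 higher, and summed to 177980 to 258000 CPM in click and 120740 to 199650 CPM in EDC. Per 100 fibre reads there were 9.08, 8.54 and 9.10 member reads in click and 6.79, 9.57 and 8.99 in EDC. That ratio, computed after the values were seen, was 8.91 ± 0.315 in click and 8.45 ± 1.47 in EDC (SD, n = 3), and EDC 1 alone was low. Slow fibre genes differed far more: 9 of 10 were higher, with a median of 3.26, and summed to 1195 to 9031 CPM in click against 348 to 682 CPM in EDC. The slow myosin gene Myh7 measured 884, 1823 and 241 CPM in click and 1.603, 11.3 and 57.4 CPM in EDC. Myh2, the myosin of oxidative fast fibres, measured 1159, 1543 and 580 CPM in click and 75.7, 301 and 553 CPM in EDC.

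Markers of immune cells and fibroblasts were mostly lower in click, and those of other cells were mixed. Of 12 macrophage genes, 11 were lower in click (median -1.93), with sums of 162 to 1163 CPM in click and 1755 to 4184 CPM in EDC. All 9 neutrophil genes tested were lower (median -4.60; 6.48 to 14.5 CPM against 16.5 to 187 CPM), with Ly6g at 0 reads in click 1 to 3 and EDC 2 and 38 and 31 reads in EDC 1 and EDC 3. All 9 fibroblast genes were lower (median -1.08; 806 to 5477 CPM against 5875 to 9267 CPM). Of 7 white fat genes 6 were lower (median -0.61; 201 to 377 CPM against 253 to 386 CPM). The 8 smooth muscle and pericyte genes had a median of 0.31 with 6 higher (375 to 458 CPM against 308 to 350 CPM), and the 6 endothelial genes one of -0.062 with 2 higher (188 to 214 CPM in click and 188 to 221 CPM in EDC). Among brown fat genes, Cox7a1 and Cox8b are themselves members, and the defining gene Ucp1 had 0, 4 and 0 reads in click and 0, 13 and 5 in EDC. Of the 5 brown fat genes tested 3 were higher (median 0.31; 196 to 361 CPM against 118 to 234 CPM). Of the 4 heart genes tested 1 was higher (median -1.24; 48.5 to 90.3 CPM against 111 to 307 CPM), and Nppb had 0 reads in every library. In whole muscle, fewer cells of a type and less RNA per cell cannot be told apart, and the part of these markers in the subunit result was not tested.

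By complex, the medians with TMM factors lay close together, and with library totals they lay between -0.022 (complex II) and 0.073 (complex III). With TMM they were 0.54 for complex I (range 0.37 to 0.80), 0.46 for complex II (0.39 to 0.58), 0.56 for complex III (0.41 to 0.91), 0.53 for complex IV (-0.56 to 0.98) and 0.51 for complex V (0.22 to 0.86). All 35, 4, 8 and 17 members of complexes I, II, III and V had positive values, and 14 of 18 did in complex IV. Without click 1 the median of complex IV was 0.25, and without EDC 2 those of complexes II and V were 0.71 and 0.78. The share of member reads taken by each complex was close between the groups. Complex I held 26.5% ± 0.844 in click and 26.3% ± 0.812 in EDC (SD, n = 3), and complex V 36.7% ± 2.43 and 37.0% ± 1.26. Shares of complexes II, III and IV were 7.48% ± 0.528, 13.9% ± 0.602 and 15.4% ± 1.70 in click and 7.86% ± 0.0992, 13.6% ± 0.296 and 15.2% ± 0.793 in EDC. The difference was below both group SDs for complexes I, IV and V. For complexes II and III it was below the click SD but above the EDC SD. These shares were not tested.

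**Figure D3:**
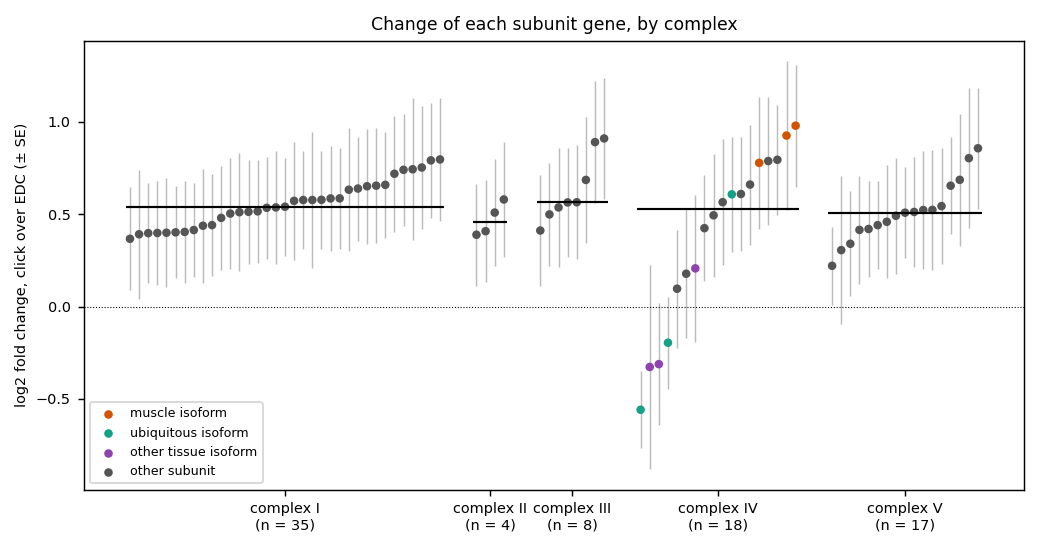
Log2 fold change (TMM factors) of each subunit gene, click over EDC, with its standard error, sorted within complex; black lines are medians, and colours mark muscle, ubiquitous and other isoforms. The medians lie between 0.46 and 0.56, and only complex IV has points below 0, which are Cox6a1, Cox6b2, Ndufa4l2 and Cox8a.

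Complex I takes electrons from NADH through a flavin and a chain of iron-sulphur clusters. Its 7 nuclear core genes had a median log2 fold change of 0.63 and its 28 accessory genes one of 0.53. Ndufv1, which carries the flavin and the NADH site, measured 187, 178 and 119 CPM in click and 79.8, 145 and 82.3 CPM in EDC (log2 fold change 0.65, SE 0.31). Ndufs1, the largest iron-sulphur subunit, measured 300.4, 370.4 and 287 CPM in click and 179, 318 and 190 CPM in EDC (0.48, SE 0.28). For both genes EDC 2 reached the range of the click libraries.

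In complex I 3 of 35 genes had an edgeR unadjusted p under 0.05, all higher in click. Over all genes tested, 7.22% were higher at that p. Ndufs8, a core subunit that holds iron-sulphur clusters, measured 155, 126 and 89.0 CPM in click and 65.4, 101 and 55.5 CPM in EDC (log2 fold change 0.74, SE 0.30; edgeR unadjusted p 0.044). The accessory membrane subunit Ndufb4 measured 84.3, 57.1 and 41.3 CPM in click and 37.1, 44.2 and 23.8 CPM in EDC, the highest log2 fold change of the complex at 0.80 (SE 0.33; edgeR unadjusted p 0.047). Ndufb2, another accessory membrane subunit, measured 78.0, 51.3 and 38.3 CPM in click and 30.6, 41.1 and 25.1 CPM in EDC (0.79, SE 0.31; edgeR unadjusted p 0.038). In all 3 genes click 1 was highest, EDC 3 lowest, and EDC 2 above click 3. The lowest log2 fold change was that of the accessory gene Ndufc2, at 0.37 (SE 0.28), with 83.4, 70.0 and 51.8 CPM in click and 44.5, 71.6 and 42.9 CPM in EDC.

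Complex II is the only complex made wholly from nuclear genes, and it also works in the citric acid cycle. Sdha, the flavoprotein that oxidises succinate, had the lowest log2 fold change of the complex, 0.39 (SE 0.28), with 599, 696 and 570.2 CPM in click and 380.4, 647 and 397 CPM in EDC. Sdhb, the iron-sulphur subunit, had the highest, 0.58 (SE 0.31), with 483, 387 and 312 CPM in click and 246, 362 and 183 CPM in EDC. For both genes the groups overlapped at EDC 2.

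In complex III the highest log2 fold changes were those of small supernumerary subunits and the lowest that of a core protein. Uqcr10, one of the smallest subunits, measured 289.9, 225 and 145 CPM in click and 104, 156 and 90.7 CPM in EDC (log2 fold change 0.91, SE 0.33; edgeR unadjusted p 0.026). Uqcrq, the ubiquinone-binding supernumerary subunit, measured 303, 224 and 170.2 CPM in click and 106, 178 and 92.1 CPM in EDC (0.89, SE 0.33; edgeR unadjusted p 0.031). In each, click 1 and click 2 exceeded all EDC libraries and EDC 2 exceeded click 3. The Rieske iron-sulphur protein Uqcrfs1, which passes electrons to cytochrome c1, measured 480.4, 469 and 355 CPM in click and 244, 421 and 217 CPM in EDC (0.57, SE 0.31). The core protein gene Uqcrc1 had the lowest value, 0.41 (SE 0.30), with 624, 619 and 555 CPM in click and 361, 649 and 341 CPM in EDC, so that EDC 2 was the highest library.

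Complex IV held both the highest and the lowest log2 fold change of all members, in the pair of isoforms of 1 subunit. Cox6a2, the heart and muscle form at chr7:128205435-128206387, measured 471, 489.7 and 262 CPM in click and 199, 268 and 152 CPM in EDC. Only click 3 fell within the EDC range, just below EDC 2. Its log2 fold change was 0.98 (SE 0.33; edgeR unadjusted p 0.020, adjusted p 0.298; DESeq2 adjusted p 0.0883). Cox6a1, the form of most tissues at chr5:115345642-115348981, measured 14.1, 11.4 and 17.2 CPM in click and 19.3, 21.6 and 22.04 CPM in EDC. Every EDC library exceeded every click library. Its log2 fold change was -0.56 (SE 0.21; edgeR unadjusted p 0.030, adjusted p 0.303), and it stayed between -1.02 and -0.46 under all 20 alternatives run. Unadjusted p was above 0.05 for Cox6a1 without click 1, click 2, EDC 2 or EDC 3, at 0.061, 0.068, 0.052 and 0.075 in edgeR.

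The other pairs followed in part. The muscle form Cox7a1, at chr7:30184144-30186078, measured 193, 126 and 105 CPM in click and 49.7, 119 and 54.6 CPM in EDC (log2 fold change 0.93, SE 0.40). Its partner Cox7a2 measured 176, 155 and 103 CPM in click and 86.6, 130.4 and 68.3 CPM in EDC (0.61, SE 0.31). Both forms were thus higher in click, with EDC 2 above click 3. Cox8b, the muscle form at chr7:140898945-140900446, measured 163, 129 and 87.6 CPM in click and 63.0, 109 and 50.3 CPM in EDC (0.78, SE 0.36). Its partner Cox8a, at chr19:7215153-7217616, measured 15.9, 11.2 and 20.2 CPM in click and 19.1, 15.9 and 19.1 CPM in EDC (-0.20, SE 0.25). Cox8a levels were low and mixed between the groups, and the value was 0.16 when click 1 and click 3 were set against EDC 2. The 3 muscle forms had a median log2 fold change of 0.93 and the 3 forms of most tissues one of -0.20.

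A ratio of isoforms within a library does not depend on the scaling factor. Cox6a2 had 33.5, 42.8 and 15.2 reads per Cox6a1 read in click and 10.3, 12.4 and 6.92 in EDC, so the groups did not overlap. The means were 30.5 ± 14.03 and 9.89 ± 2.77 (SD, n = 3), and the ratio was 2.91 times as high in click (log2 difference 1.54, SE 0.51). The exact two-sided permutation test gave p = 0.1, the smallest that 3 against 3 libraries allow, and 0.24 after adjustment over 6 isoform ratios. Within the mt-Atp6 read classes the log2 difference was 2.34 (click 2 against EDC 1 and EDC 3) and 0.86 (click 1 and click 3 against EDC 2). Per base of transcript, Cox6a2 made up 95.5% ± 2.44 of the pair in click and 88.7% ± 3.07 in EDC.

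For Cox8b over Cox8a the ratios were 10.3, 11.6 and 4.35 in click and 3.29, 6.82 and 2.64 in EDC (log2 difference 1.04, SE 0.61; exact permutation p = 0.2, adjusted 0.24). Click 3 lay below EDC 2, and the log2 difference was -0.028 for click 1 and click 3 against EDC 2. For Cox7a1 over Cox7a2 they were 1.09, 0.811 and 1.02 in click and 0.573, 0.91 and 0.8 in EDC (0.37, SE 0.24; exact permutation p = 0.2, adjusted 0.24). Click 2 was the exception there, lying within the EDC range. Per base of transcript, Cox8b made up 91.9% ± 4.30 of its pair in click and 84.9% ± 5.71 in EDC, and Cox7a1 61.8% ± 3.70 and 55.6% ± 5.89.

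**Figure D4:**
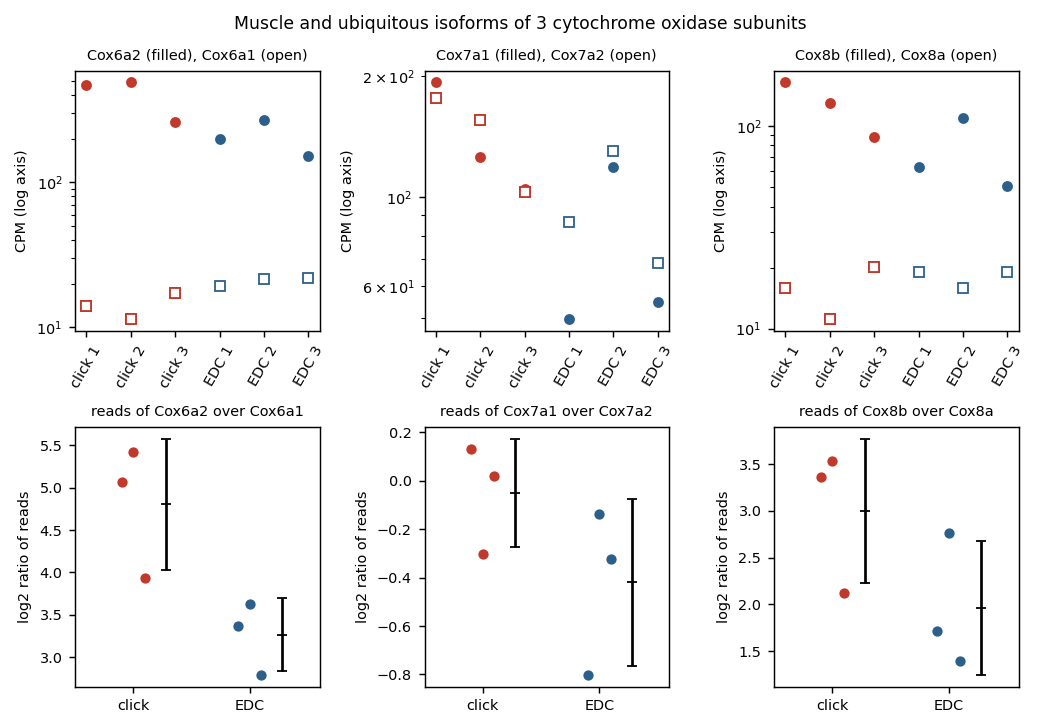
Upper panels, CPM on log axes of the muscle form (filled circles) and the form of most tissues (open squares) of 3 complex IV subunits in each library, click in red and EDC in blue; lower panels, log2 ratio of reads within each library with mean ± SD (n = 3). The Cox6a2 over Cox6a1 ratios do not overlap between the groups (15.2 to 42.8 reads against 6.92 to 12.4), whereas the other pairs do.

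Other complex IV isoforms are known from other tissues or states. Cox4i1, the common form of the largest nuclear subunit, at chr8:120668222-120674207, measured 529, 336 and 291 CPM in click and 395, 414 and 213 CPM in EDC (log2 fold change 0.18, SE 0.35), so the groups were mixed. Its lung form Cox4i2 was close to 1 CPM in each library, 0.776 to 1.30 CPM (0.21, SE 0.40), and the log2 ratio of Cox4i2 to Cox4i1 reads differed by 0.044 between the groups (SE 0.27; exact permutation p = 0.9, adjusted 0.9). Cox6b1, the common form of a cytochrome c-side subunit, measured 384, 342 and 249.9 CPM in click and 209, 324 and 193 CPM in EDC (0.42, SE 0.29). Cox6b2, its testis form, was at 0.253 to 0.527 CPM (-0.33, SE 0.55). Neither rare form approached 1% of its partner's level.

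Ndufa4, once assigned to complex I and now to complex IV, measured 267, 227 and 153 CPM in click and 115, 163 and 95.05 CPM in EDC (log2 fold change 0.80, SE 0.30; edgeR unadjusted p 0.031). Its hypoxia-inducible paralogue Ndufa4l2 measured 2.82, 5.68 and 4.53 CPM in click and 6.57, 4.81 and 4.80 CPM in EDC (-0.31, SE 0.33). Click 1 was low and EDC 1 high, and the other 4 libraries were at 4.53 to 5.68 CPM. The log2 ratio of Ndufa4l2 to Ndufa4 reads was lower in click by a difference of -1.14 (SE 0.54; exact permutation p = 0.2, adjusted 0.24), with 0.0106, 0.0251 and 0.0296 in click and 0.0571, 0.0296 and 0.0505 in EDC. Ndufa4l2 overlaps the opposite-strand gene Shmt2 over 32 bases. Shmt2 held 405% of its read number, and reads of that stretch cannot be told apart because the use of strand in counting is not stated. Cox7a2l, a factor that joins complexes III and IV, measured 73.0, 108 and 75.5 CPM in click and 59.7, 118 and 62.2 CPM in EDC (0.097, SE 0.32), with click 2 and EDC 2 as its highest libraries.

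In ATP synthase the catalytic genes were the most highly read of all members. Atp5b, the beta subunit at chr10:128083273-128090391, measured 1723, 2212 and 1613 CPM in click and 1041, 1847 and 1059 CPM in EDC (log2 fold change 0.49, SE 0.32). Atp5a1, the alpha subunit, measured 1497, 1968 and 1343 CPM in click and 942, 1503 and 926 CPM in EDC (0.51, SE 0.30). In both, click 2 and not click 1 was the highest library. Atp5l, the g subunit of the membrane part, measured 252, 191 and 165 CPM in click and 114, 166 and 107 CPM in EDC (0.65, SE 0.26; edgeR unadjusted p 0.041). Medians by part of the enzyme were 0.50 for the catalytic genes, 0.52 for the central stalk and 0.50 for the peripheral stalk. They were 0.52 for the membrane accessory genes and 0.34 for the c ring. Atp5s and Atp5sl, classed as coupling or assembly factors, had a median of 0.46, and Atp5sl is included by its symbol alone.

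The c ring, which turns as protons pass, is built from 1 mature protein encoded by Atp5g1, Atp5g2 and Atp5g3, which differ in their targeting peptides. Atp5g1 had the highest log2 fold change of the complex, 0.86 (SE 0.33; edgeR unadjusted p 0.034), with 308, 351 and 220.3 CPM in click and 128, 236 and 122 CPM in EDC. Atp5g2 had the lowest, 0.22 (SE 0.21), with 99.2, 92.1 and 76.1 CPM in click and 76.1, 91.2 and 62.1 CPM in EDC. Atp5g3 measured 345, 285 and 261 CPM in click and 197, 327 and 179.7 CPM in EDC (0.34, SE 0.28). Atp5g1 had 0.893, 1.23 and 0.843 reads per Atp5g3 read in click and 0.647, 0.720 and 0.680 in EDC. These groups did not overlap (log2 difference 0.52, SE 0.18; exact permutation p = 0.1, the smallest possible, adjusted 0.24). The value was 0.89 and 0.27 within the mt-Atp6 read classes of click 2 and of click 1 and 3.

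Levels between genes were compared per length of transcript, as CPM per kilobase of the GENCODE transcripts averaged over all libraries. Atp5b led at 826, followed by Uqcrh (621), Atp5a1 (552), Uqcrb (533), Atp5e (519) and Atp5o (506). At the low end were Cox6b2 (0.664), Cox4i2 (1.57) and Ndufa4l2 (5.21). Cox6a1 (30.9) and Cox8a (30.7) were also among the lowest, far below Cox6a2 (452) and Cox8b (279), whereas Cox7a1 (274) and Cox7a2 (182) were of like size. The median mean level over all members was 160.0 CPM, with 78 above 10 CPM.

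Short and long transcripts were not read alike in all libraries. Spearman's rho between transcript length and a member's deviation from its own mean over the libraries was -0.43 in click 1, 0.27 in click 2 and 0.42 in click 3, and -0.14, 0.10 and 0.066 in EDC 1, 2 and 3, over the 82 members of each library, which share its depth and composition. The click libraries thus differed among themselves in this respect. With the log2 fold change, rho was -0.056, and the median was 0.54 for the 41 shorter and 0.52 for the 41 longer members.

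The 13 protein genes of mitochondrial DNA, which supply the other subunits of complexes I, III, IV and V, were all higher in click, with a median log2 fold change of 1.2. Of the 13, 5 were without overlap between the groups, where 9.84% of all genes tested were higher without overlap. There were 18.0, 15.8 and 10.5 reads of the 13 genes per member read in click and 9.78, 8.76 and 11.5 in EDC, that is 14.8 ± 3.89 and 10.03 ± 1.41 (SD, n = 3). Click 1 and click 2 were high and click 3 lay within the EDC range. For complex V alone, mitochondrially encoded reads per nuclear read were 1.78, 3.69 and 0.877 in click and 2.54, 0.765 and 2.81 in EDC. These means were close, 2.12 ± 1.44 and 2.04 ± 1.11 (SD, n = 3). The highest values were those of click 2, EDC 1 and EDC 3, which form 1 of the mt-Atp6 read classes.

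Lists of genes that serve the respiratory chain had medians of 0.44 to 0.55, and the hypoxia response list one of 0.19. Of 135 in 6 lists, edgeR called 0 at an adjusted p of 0.05 and DESeq2 called 3, and 28 had an edgeR unadjusted p under 0.05. Over all genes tested, DESeq2 called 3.84%, and 15.2% had an edgeR unadjusted p under 0.05. With library totals the median was -0.024 for assembly factors, -0.012 for regulators and -0.30 for hypoxia response genes. Of 47 assembly factors for the complexes, 42 were higher in click (median log2 fold change 0.44), 10 at an unadjusted p under 0.05, all higher, and 13 without overlap, all higher. Over all genes tested, 7.22% were higher at that p and 9.84% were higher without overlap. Ndufaf6, a complex I assembly factor, measured 22.7, 18.0 and 12.2 CPM in click and 9.89, 10.9 and 5.95 CPM in EDC (0.98, SE 0.32). Ndufaf4, another, measured 10.8, 12.4 and 8.56 CPM in click and 4.56, 7.80 and 3.74 CPM in EDC (0.98, SE 0.33). For both, which have the smallest p of the list, every click library exceeded every EDC library.

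Of 15 genes for cytochrome c and coenzyme Q synthesis, 13 were higher (median 0.50), 3 at an unadjusted p under 0.05. Over all genes tested, 7.22% were higher at that p, the share to set beside each list in this paragraph. Coq2, which joins the ring and the tail of coenzyme Q, measured 65.5, 64.2 and 48.1 CPM in click and 35.2, 40.7 and 27.4 CPM in EDC (0.78, SE 0.22), with no overlap. Coq10a, a coenzyme Q-binding protein, measured 298, 297 and 80.5 CPM in click and 54.8, 90.1 and 44.5 CPM in EDC (1.84, SE 0.53; edgeR adjusted p 0.298, DESeq2 adjusted p 0.0218). Its difference came from click 1 and click 2, since click 3 was below EDC 2. All 17 citric acid cycle and pyruvate dehydrogenase genes were higher (median 0.53), with 1 at an unadjusted p under 0.05. Pdha1, the catalytic subunit of pyruvate dehydrogenase, measured 792, 874 and 634 CPM in click and 370.5, 636 and 380.0 CPM in EDC (0.73, SE 0.29). Suclg1, of succinyl-CoA ligase, measured 285, 283 and 215 CPM in click and 132, 236 and 120.4 CPM in EDC (0.68, SE 0.31). Both had EDC 2 just above click 3, as most members did. Of 21 carrier, pore and cristae genes, 19 were higher (median 0.55), 3 at an unadjusted p under 0.05. Among them were Chchd3, a cristae organiser, at 0.99 (SE 0.34), and Tomm20, an import receptor, at 0.63 (SE 0.20).

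Of 20 regulators of mitochondrial gene expression, 17 were higher (median 0.47), 4 at an unadjusted p under 0.05 and 4 without overlap, all higher. The shares of all genes tested that were higher were 7.22% at that p and 9.84% without overlap. Nrf1, nuclear respiratory factor 1, measured 8.40, 8.81 and 8.13 CPM in click and 3.69, 4.98 and 4.82 CPM in EDC, with narrow groups (log2 fold change 0.91, SE 0.23; edgeR adjusted p 0.298, DESeq2 adjusted p 0.0227). Esrrg, an oestrogen-related receptor of oxidative muscle, measured 7.79, 14.8 and 9.47 CPM in click and 2.57, 5.56 and 5.04 CPM in EDC (1.28, SE 0.38). In both genes, which have the smallest p of the list, EDC 2 stayed below click 3. Of 15 hypoxia response genes, 11 were higher (median 0.19). At an unadjusted p under 0.05 there were 4 higher and 3 lower, against 7.22% and 8% of all genes tested. Without click 2 the median was -0.00079. Pdk1, which inhibits pyruvate dehydrogenase, measured 72.9, 98.6 and 63.8 CPM in click and 35.8, 47.3 and 42.5 CPM in EDC (0.91, SE 0.22; edgeR adjusted p 0.298, DESeq2 adjusted p 0.0331). Egln3, an oxygen-sensing prolyl hydroxylase, measured 36.5, 66.2 and 29.5 CPM in click and 23.0, 20.3 and 20.005 CPM in EDC (1.06, SE 0.31). The 3 lower genes, named after their values were seen, were Pdk3, a related kinase, at -1.10 (SE 0.37), Hif1a, the gene of the oxygen-regulated factor, at -1.03 (SE 0.38), and the glucose transporter Slc2a1 at -0.84 (SE 0.35). Groups did not overlap for Pdk3 and Hif1a and overlapped for Slc2a1. Hif1a measured 29.4, 23.4 and 39.9 CPM in click and 48.1, 41.8 and 99.8 CPM in EDC, so click 3 and EDC 2 were close and EDC 3 stood highest.

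**Figure D5:**
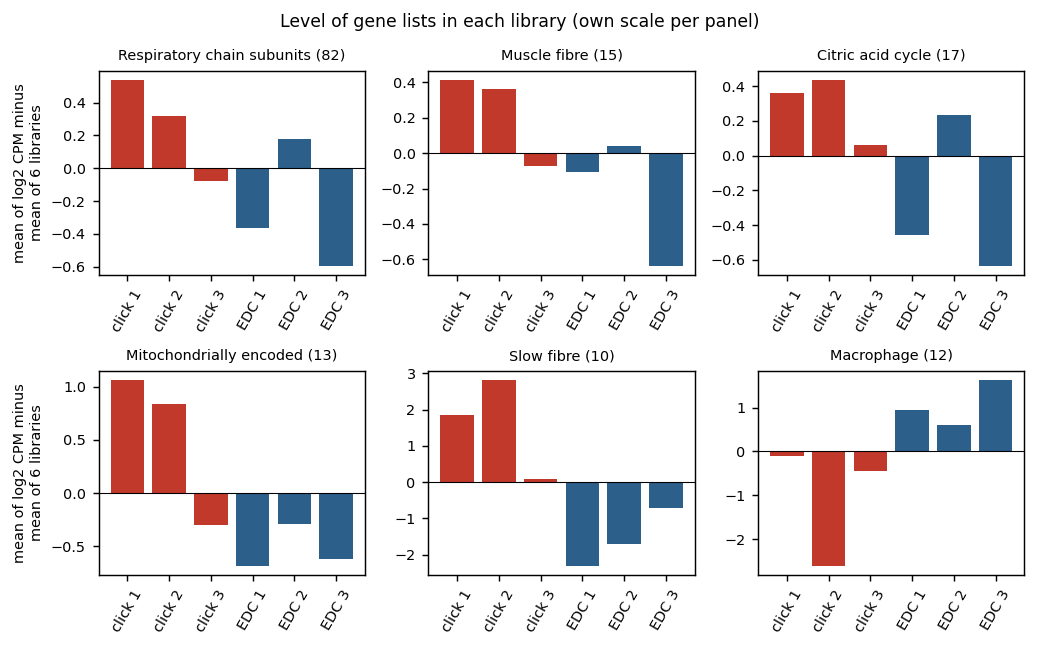
Mean over the genes of a list of log2 CPM minus each gene's mean over the 6 libraries, for 6 lists, click in red and EDC in blue, with a scale of its own for each panel. In the subunit, fibre and citric acid cycle panels EDC 3 is lowest and EDC 2 lies above click 3 (subunit values 0.54, 0.32, -0.077, -0.36, 0.18 and -0.59), while macrophage genes are lowest in click 2 and highest in EDC 3.

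Reads of near-identical gene copies limit some values. At 95% identity or more over at least 150 bases, 20 members had copies in the table, and for 8 these held over 5% of the member's read number. They were 47.1% for Atp5g2, 35.3% for Cox7c, 25.02% for Atp5l, 14.3% for Atp5h, 10.5% for Atp5g1, 8.92% for Ndufs5, 8.09% for Ndufa12 and 5.23% for Atp5f1. The share for Atp5g2 was 44.2% to 51.1% across libraries. Cox6a1, Cox6a2, Cox8a and Cox8b had no such copy. Since the counting of strand is not stated, reads of 2 genes on opposite strands cannot be assigned where their exons meet, such as Ndufb2 with Braf over 146 bases, where Braf had 24.9% of the read number of Ndufb2.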

How the data were processed

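RNA from mouse muscle was sequenced in 6 libraries, 3 per group, made from total RNA with a SMARTer mRNA kit per the labels' protocols. The deposited table gives read counts per gene from the authors, unnormalised whole numbers, 1 column per library. The submitters' processing notes name mm10 as the build. For the aligner, the counter and strandedness, the sources used here give nothing. Of 55335 lines, 3225 had no symbol and held 0.0631% to 0.0996% of a library's reads, and they were left out. Differences within every pair of libraries were 73.6 to 577 times sampling noise (chi-square per gene), so each was counted as a sample.

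Genes were tested with edgeR 4.0.16 in R 4.3.3 (quasi-likelihood F test, two-sided, TMM factors, default filter by group, robust dispersion, no covariate), with Benjamini-Hochberg adjustment over 15797 genes and a threshold of 0.05. All 82 members passed the filter. A standard error is the log2 fold change divided by the square root of F. Isoform ratios used reads plus 0.5 and exact two-sided permutation tests. Alternatives, 20 in number, changed the scaling, filter, tool (DESeq2 1.42.0, limma 3.58.1), covariate or the libraries included. Scripts were tested on simulated data. Copies were found with blastn 2.17.0 among GENCODE M21 transcripts, which also gave coordinates (start and end counted from 1) and lengths; all 82 members matched, 1 through a RefSeq synonym (Atp5sl) and 1 on 2 entries (Atp5o). Promoter windows are from RefSeq.

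The members, lists and tests were chosen with earlier results of these data known. Named with values were isoform family members, catalytic or core subunits, the highest and lowest log2 fold change in each complex, members at an edgeR unadjusted p under 0.05, and the 2 smallest p in each of 6 pathway lists. Myh7, Myh2, Ucp1, Ly6g and Nppb, genes given per length, and genes given for copies or overlaps were chosen after their values were seen. The hypoxia list holds 16 symbols, and Ca9 was not matched. The 5 brown fat, 4 heart and 9 neutrophil genes tested are of 7, 7 and 10 listed. The replicate numbers are not known to pair animals: same-numbered libraries' deviations correlated at -0.015, 0.27 and 0.33, not over 0.1 in every pair.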

Additional observations from a re-analysis of the deposited data

Results flagged for a closer look

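Atp5l2-ps, a pseudogene row that the choice of members leaves out, had 201 reads over the 6 libraries, above the limit of 3 that a count of 0 allows. It had 34, 36 and 24 reads in click 1 to 3 and 25, 53 and 29 reads in EDC 1 to 3. The groups overlapped, and the row enters no comparison above.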

How the results depend on the processing

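Over the 20 alternatives run, 0 members passed an adjusted p of 0.05 wherever a test was possible, and Cox6a1 remained lower and Cox6a2 higher in click. With DESeq2 or upper-quartile factors, other filters, limma-voom, sex or the mt-Atp6 read class as covariate, the medians by complex and by list moved by less than the spread between libraries.

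Scaling decided the size. With library totals alone the median log2 fold change was 0.037 for the members, 0.048, -0.022, 0.073, 0.0063 and 0.027 for complexes I to V, and -0.024 for assembly factors, 0.026 for cytochrome c and coenzyme Q, 0.060 for the citric acid cycle, -0.012 for regulators, -0.30 for hypoxia response and 0.066 for carriers. With factors from fibre genes it was 0.073 for the members, 0.085, 0.010, 0.11, 0.051 and 0.051 for complexes I to V, and 0.0062, 0.073, 0.083, -0.0091, -0.31 and 0.10 for the lists in that order. With totals without mitochondrially encoded genes it was 0.18 for complex IV, 0.13 for assembly factors, 0.15 for regulators, -0.15 for hypoxia response and 0.22 for carriers. Named genes that changed sign with totals, then fibre factors, were Atp5g2 (-0.27, -0.24), Atp5g3 (-0.13, -0.0998), Cox4i1 (-0.33, -0.26), Cox4i2 (-0.25, -0.21), Cox6b1 (-0.073, -0.042), Cox7a2l (-0.36, -0.34), Ndufc2 (-0.13, -0.10), Sdha (-0.073, -0.058) and Uqcrc1 (-0.042, -0.015). With totals without mitochondrially encoded genes these were Atp5g2 (-0.11), Cox4i1 (-0.16), Cox4i2 (-0.097) and Cox7a2l (-0.21). The median of all genes tested was lower as well, at -0.45 with totals and -0.46 with fibre factors. It was -0.31 with totals without mitochondrially encoded genes. Which scaling is right was not tested.

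Within the mt-Atp6 read class of click 1, click 3 and EDC 2, the median was 0.066 for the members, 0.081, -0.067, 0.075, 0.12 and 0.035 for complexes I to V, and 0.080 for assembly factors, -0.12 for cytochrome c and coenzyme Q, -0.016 for the citric acid cycle, 0.077 for regulators, 0.043 for hypoxia response and -0.043 for carriers. There the log2 ratio of Cox8b to Cox8a differed by -0.028, Cox8a was at 0.16, and the named genes whose sign turned negative were Atp5a1 (-0.083), Atp5b (-0.15), Atp5g2 (-0.070), Atp5g3 (-0.12), Cox4i1 (-0.078), Cox6b1 (-0.066), Cox7a2l (-0.66), Ndufc2 (-0.12), Ndufs1 (-0.11), Sdha (-0.15), Uqcrc1 (-0.14) and Uqcrfs1 (-0.026). In the class of click 2, EDC 1 and EDC 3 the median was 0.85 for complex II, 0.88 for cytochrome c and coenzyme Q, 0.96 for the citric acid cycle, 0.65 for regulators, 0.50 for hypoxia response and 0.92 for carriers, Ndufa4l2 was at 0.014, and the log2 ratio of Cox4i2 to Cox4i1 differed by -0.061. The cause was not tested.

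The number of members at an unadjusted p under 0.05, 10 as reported, was 1 with library totals, 5 with totals without mitochondrially encoded genes, 2 with fibre factors, 16 without a filter, 3 with sex, 4 with the mt-Atp6 read class and 19 with DESeq2. With the replicate number as a block it was 46, while the members' median was 0.55 and 0 passed an adjusted p of 0.05. Of 15797 genes tested, 2404 reached that unadjusted p as reported, 2706 with library totals and 2376 with fibre factors. With totals without mitochondrially encoded genes 2401 did, with sex 1906, with the read class 1676, with DESeq2 2988 and with the block 3673. Without a filter 2832 of 25516 did. The replicate numbers are not known to pair animals. Click 2 and click 3 correlated best with the EDC library of the same number (0.27 and 0.33), but click 1 with EDC 2 (0.053). Leaving out 1 library at a time gave 0 to 54 such members, medians of 0.37 to 0.78 for the members, 0.30 to 0.47 for regulators and -0.00079 to 0.32 for hypoxia response, values of -0.13 to 0.35 for Cox4i1 and -0.13 to 0.45 for Cox7a2l, and log2 ratio differences of -0.17 to 0.25 for Cox4i2 over Cox4i1. DESeq2 alone called Coq10a (1.85), Nrf1 (0.91) and Pdk1 (0.91). For members near 1 CPM, Cox4i2 and Cox6b2, depth limits what could be seen.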
